A study of Mus musculus with 24 samples.

Results

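The oncofetal genes Gpc3, Afp, H19, Dlk1, Igf2bp3, Lin28b and Meg3 were followed through cultured and freshly sorted liver cells, 7 genes of the 49568 in each deposited table. They were chosen by symbol around Gpc3, which was picked from its measured levels in liver organoids (high in expansion medium, low beside stromal cells). The Gpc3 levels in organoids are therefore given as a description with no test, and so are all values of the 7 genes in the contrast of both organoid cultures.

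Messenger RNA of mouse liver cells was sequenced in 2 experiments of 12 libraries each. In the transwell experiment, cells came from C57BL/6 wild-type adults aged 8 to 12 weeks, and each of its 6 groups held 2 libraries. EpCAM+ ductal cells (DCs) were sequenced when freshly sorted (DC day 0), after 15 days as organoids in expansion medium (EM organoids), and after 15 days as organoids in mesenchymal medium across a porous membrane from stromal cells (co-cultured organoids). The stromal partner, SCA1+ mesenchymal cells (SCA1+Msc), was sorted on SCA1 among cells without CD45, CD11b and CD31, with no selection on PDGFRa, and expanded for 7 days in mesenchymal medium before DCs were added. It was sequenced fresh (SCA1+Msc day 0), cultured without DCs (SCA1+Msc alone) and cultured with them (SCA1+Msc co-cultured). DCs alone in mesenchymal medium gave no libraries, so the stromal partner and the change of medium cannot be told apart between EM organoids and co-cultured organoids. In the homeostasis experiment, 4 populations were sorted from each of 3 heterozygous Pdgfra-H2B-GFP littermates (B6.129S4-Pdgfratm11(EGFP)Sor/J) aged 12 weeks (A and E male, F female): DCs, PDGFRa+SCA1- cells, PDGFRa+SCA1+ cells and PDGFRa-SCA1+ cells. In these mice a nuclear green fluorescent protein made from the Pdgfra locus marks PDGFRa+ cells, and every group, DCs included, carried that allele. Transwell values are TPM (transcripts per 1000000), and homeostasis values are the deposited numbers named TPM, whose per-library totals are not exactly equal. For the co-cultures, the study's methods name 2 littermates as the source of SCA1+Msc and 2 other littermates as the source of DCs. Nothing in the labels ties a transwell library to an animal, so p-values there measure only the spread between libraries. The 2 experiments are set side by side and not compared by a test.

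Oncofetal genes are transcribed in fetal liver, are largely silenced in the liver as a whole after birth and often return in liver tumours. In these data, fresh adult SCA1+Msc and PDGFRa+ cells still held Gpc3 and Meg3, as given below. Gpc3 encodes glypican 3, a heparan sulphate proteoglycan anchored to the cell surface, and Afp encodes alpha-fetoprotein, the main plasma protein of the fetus. H19 and Meg3 are imprinted long noncoding RNAs read from the maternal chromosome, next to Igf2 and Dlk1, which are read from the paternal one. Lin28b encodes an RNA-binding protein that blocks maturation of let-7 microRNAs, and Igf2bp3 encodes an RNA-binding protein of fetal tissues. In mouse liver, Zhx2 is known as a repressor of Afp, H19 and Gpc3 after birth, and Zbtb20 as a repressor of Afp.

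The RefSeq windows upstream of Gpc3, Afp and Meg3 are shown because these 3 genes had the most reads in EM organoids, and the windows differ in base composition. Each is the 250 bases before the annotated start on build GRCm38.p6, 5′ to 3′ on the gene's strand. Capitals mark matches, on either strand, to any of 4 short motifs. The GC box was searched as GGGCGG and the TATA box as TATAAA. Part of a site for the liver factor HNF1 was searched as GTTAAT. The cyclic AMP response element was searched as TGACGTCA. The Gpc3 window lies at chrX:52613975-52614224 on the minus strand, the Afp window at chr5:90490464-90490713 on the plus strand and the Meg3 window at chr12:109540746-109540995 on the plus strand.
Gpc3: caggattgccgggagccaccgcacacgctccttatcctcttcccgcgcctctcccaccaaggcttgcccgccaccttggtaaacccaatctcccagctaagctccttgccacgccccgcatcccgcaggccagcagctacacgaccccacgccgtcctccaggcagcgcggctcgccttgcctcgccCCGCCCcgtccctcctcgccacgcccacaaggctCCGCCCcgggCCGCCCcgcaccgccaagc
Afp: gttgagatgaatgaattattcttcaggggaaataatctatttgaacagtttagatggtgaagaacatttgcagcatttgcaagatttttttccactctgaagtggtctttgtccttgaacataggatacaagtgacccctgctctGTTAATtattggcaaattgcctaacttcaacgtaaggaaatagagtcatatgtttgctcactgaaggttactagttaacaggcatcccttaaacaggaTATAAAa
Meg3: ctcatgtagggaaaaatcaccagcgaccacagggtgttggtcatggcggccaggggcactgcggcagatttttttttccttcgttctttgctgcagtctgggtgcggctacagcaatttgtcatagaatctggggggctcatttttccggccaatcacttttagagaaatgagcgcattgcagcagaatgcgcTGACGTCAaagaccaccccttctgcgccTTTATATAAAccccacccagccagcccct

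The Gpc3 window held 25 CpG dinucleotides, against a median of 6 over all 32851 RefSeq windows of that length, and 3 matches to GGGCGG, which occurs in 32.7% of windows. The Afp window held 1 CpG, a TATAAA match (12.4% of windows) and a GTTAAT match (6.43% of windows). The Meg3 window held 10 CpGs and a TGACGTCA match, found in 1.55% of windows. Its TATAAA match is read on both strands from overlapping letters. Meg3 has a second RefSeq window, at chr12:109545148-109545397, which held 0 CpGs and no match and is not printed. No match of 1 motif overlapped a match of another. Of the 7 genes, 6 had an entry, and H19 had none. These matches describe letters only.

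In units of 1000000 reads, library depth ran from 19.3 to 28.1 (transwell) and from 19.6 to 25.7 (homeostasis), estimated from the step size of low values. This depth places 3 reads, the limit that a count of 0 allows, at 0.125 to 0.186 TPM for Gpc3 in the transwell libraries. Such limits and read numbers cover counting error only. The defining genes of each labelled population were found in it, except that the PDGFRa-SCA1+ cells, labelled as mesenchymal, were low in mesenchymal genes. Ductal markers (Krt19, Epcam and 5 others) summed to 37614 to 53921 TPM in DCs and organoids, and mesenchymal markers (Pdgfra, Col1a1 and 6 others) to 24652 to 44876 TPM in SCA1+Msc. SCA1+Msc day 0 also carried hepatocyte transcripts (11 markers summing to 25149 and 30341 TPM), blood and macrophage transcripts (8596 and 10696 TPM) and ductal transcripts (1205 and 2520 TPM). PDGFRa-SCA1+ libraries carried endothelial markers (2637 to 2869 for 6 genes) and little of the mesenchymal ones (294.3 to 484.9 for 8 genes). In bulk RNA, fewer cells of a type and less RNA per cell cannot be told apart.

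Gpc3 (ENSMUSG00000055653, chrX:52272426-52613950, minus strand) was the only one of the 7 genes with high levels in organoids. DC day 0 held 9.50 and 7.78 TPM (220 and 131 reads). EM organoids held 323 and 293 TPM (6203 and 5025 reads). Co-cultured organoids held 6.07 and 14.3 TPM (146 and 290 reads). The EM organoid mean of 308 ± 21.7 TPM (SD, n = 2) was 35.7-fold the DC day 0 mean of 8.64 ± 1.22, and co-cultured organoids, at 10.2 ± 5.82, spanned the DC day 0 values. These contrasts chose the gene, so no test is attached. All Gpc3 reads are counted over exons without strand, and the antisense genes Gm14582 and A630012P03Rik overlap the locus.

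**Figure D1:**
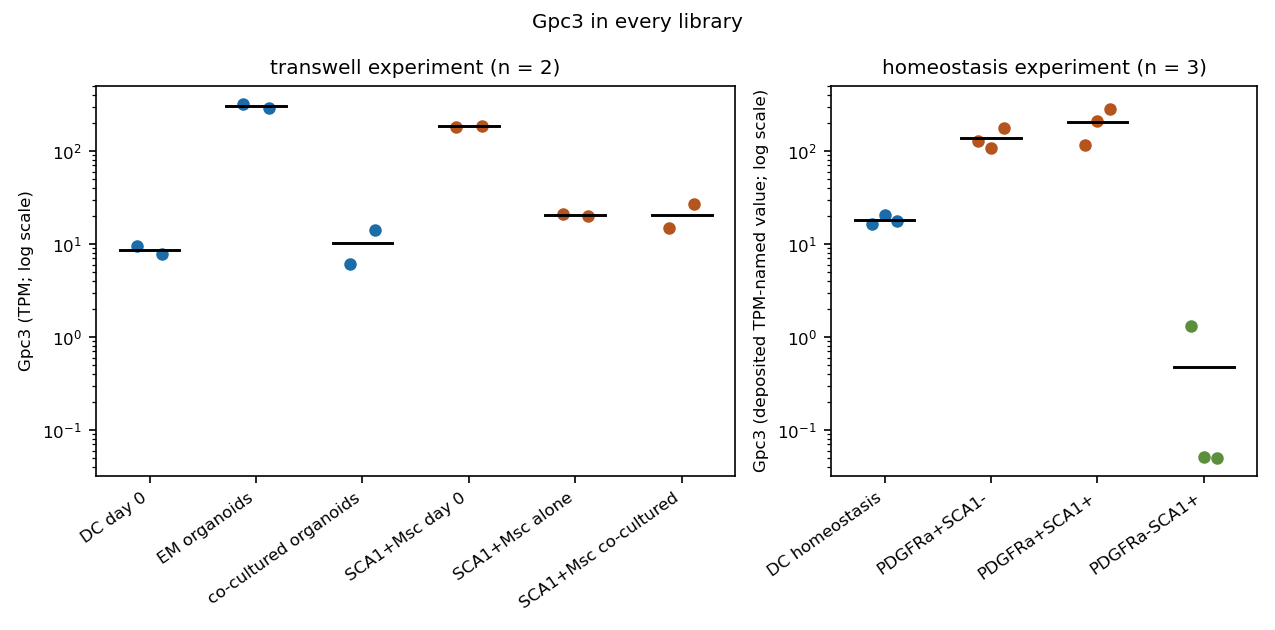
Gpc3 in each of the 24 libraries (points; vertical axis in TPM on the left and in the deposited TPM-named value on the right, both log scale), with black bars at group means. EM organoids (293 and 323 TPM) stand above DC day 0 and co-cultured organoids (6.07 to 14.3 TPM), and PDGFRa+ populations stand above DCs and PDGFRa-SCA1+ cells.

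Among stromal cells, Gpc3 was high when fresh and lower in culture. SCA1+Msc day 0 held 182 and 187 TPM, SCA1+Msc alone held 20.9 and 20.2 TPM, and SCA1+Msc co-cultured held 14.7 and 26.8 TPM. From day 0 to SCA1+Msc alone the mean fell 8.97-fold, a log2 difference of -3.11 (SE 0.35, limma adjusted p = 9.65e-05), and the groups did not overlap. In that comparison 17.4% of the 18133 genes tested were lower and 27.4% higher. Hepatocyte markers moved with it, from 25149 and 30341 TPM at day 0 to 14.5 and 8.64 TPM in SCA1+Msc alone, and so did blood markers, to 14.7 and 23.9 TPM. Mesenchymal markers summed higher in culture (42225 and 44876 TPM) than at day 0 (24652 and 26172 TPM). The part of these cells in the Gpc3 result was not tested. With DCs present the stromal level differed from SCA1+Msc alone by -0.05 (95% interval -0.83 to 0.74, adjusted p = 1), and the direction turned to 0.36 without co-cultured replicate 1. Few genes passed there at all: 0.0938% were higher and 0.0331% lower.

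Freshly sorted SCA1+Msc and PDGFRa+ cells held more Gpc3 than fresh ductal cells, and PDGFRa-SCA1+ cells held less. SCA1+Msc day 0 exceeded DC day 0 21.4-fold (log2 difference 4.27, SE 0.35, adjusted p = 9.88e-06), in a comparison where 21.4% of genes were higher and 24.7% lower. In homeostasis, DCs held 16.5, 20.5 and 17.6 for mice A, E and F. PDGFRa+SCA1- cells held 128, 107 and 179, and PDGFRa+SCA1+ cells held 116, 213 and 282. PDGFRa-SCA1+ cells held 1.31, 0.0514 and 0.05, that is 23 reads in mouse A and 1 read in each of the others. Each PDGFRa+ library was above each DC library, and each DC library above each PDGFRa-SCA1+ library. The log2 difference from DCs was 3.33 for PDGFRa+SCA1+ cells (SE 0.43, adjusted p = 1.04e-04, higher in 3 of 3 mice) and 2.83 for PDGFRa+SCA1- cells (SE 0.43, adjusted p = 3.53e-04, higher in 3 of 3 mice). For PDGFRa-SCA1+ cells it was -3.81 (SE 0.43, adjusted p = 3.84e-05, lower in 3 of 3 mice). Over all 17028 genes tested, 9.85% were higher and 14.0% lower in PDGFRa+SCA1+ cells, 9.98% and 18.9% in PDGFRa+SCA1- cells, and 11.5% and 11.3% in PDGFRa-SCA1+ cells. The 2 PDGFRa+ populations overlapped, with a log2 difference of 0.50 (95% interval -0.43 to 1.43, adjusted p = 0.718). Between them only 0.435% of genes were higher and 0.153% lower in PDGFRa+SCA1+ cells, 100 in all, and 20 with the mouse as a block.

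Within the transwell series, the order of mean Gpc3 levels was EM organoids, SCA1+Msc day 0, SCA1+Msc co-cultured, SCA1+Msc alone, co-cultured organoids and DC day 0. The co-cultured and lone SCA1+Msc overlapped each other, and co-cultured organoids overlapped DC day 0. The other neighbours in that order did not overlap, although the lowest co-cultured SCA1+Msc value (14.7) lay just above the highest co-cultured organoid value (14.3). Mesenchymal markers summed to 7.82 and 2.02 TPM in EM organoids, where Pdgfra and Pdgfrb were at 0 in both libraries, against 76.6 and 98.6 TPM in DC day 0. The genes most like Gpc3 over the 12 transwell libraries, by Pearson correlation of log2(TPM + 1) among 12401 genes, were Rpl7a (0.93), Flrt2 (0.92) and Trf (0.91). Trf, which encodes transferrin, held a mean of 347 TPM in EM organoids and 51.3 TPM in co-cultured organoids. The 12 points share groups and scaling, so these values are descriptive.

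**Figure D2:**
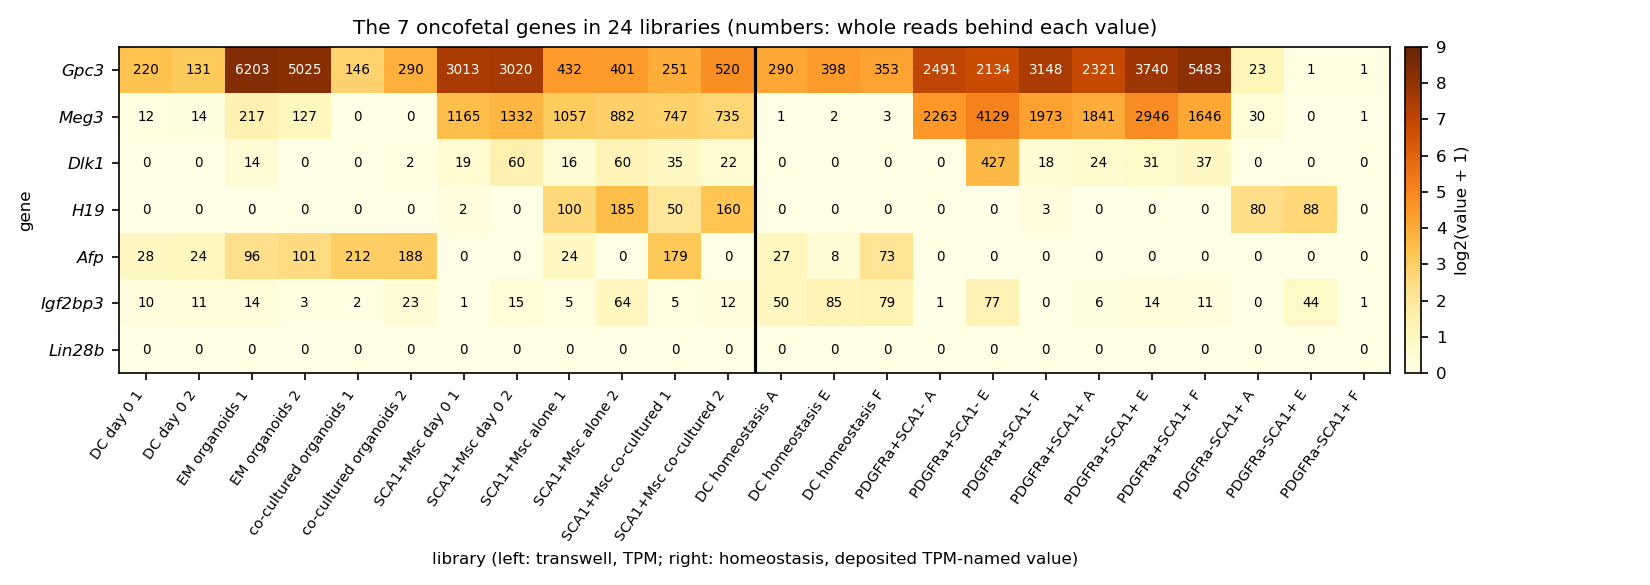
The 7 genes (rows) in 24 libraries (columns), coloured by log2(value + 1), with the whole reads behind each value printed in the cell (approximate for H19). Gpc3 reaches 6203 reads in organoids, the most of any row there, Meg3 is highest in PDGFRa+ libraries, and Lin28b is at 0 throughout.

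The 6 glypicans and their modifying enzymes place Gpc3 among its relatives. Gpc4, which lies beside Gpc3 on the X chromosome, was the main glypican of DC day 0, with 82.3% ± 2.96 (SD, n = 2) of summed glypican TPM, against 11.02% ± 1.199 for Gpc3. In EM organoids Gpc3 made up 71.3% ± 2.22 and Gpc4 27.0% ± 2.18 of a sum of 432 TPM. In co-cultured organoids the shares were 10.9% ± 3.10 and 75.2% ± 0.634 of 89.3 TPM. In SCA1+Msc the Gpc3 share went from 44.7% ± 2.91 at day 0 to 5.40% ± 0.247 alone and 6.24% ± 1.81 in co-culture, where Gpc4 reached 81.4% ± 0.661 and 78.0% ± 1.51. In homeostasis, Gpc3 was 26.0% ± 2.33 (n = 3) of the glypican sum in DCs, 30.3% ± 5.27 in PDGFRa+SCA1- cells, 47.2% ± 8.28 in PDGFRa+SCA1+ cells and 1.80% ± 2.44 in PDGFRa-SCA1+ cells, where the whole sum was 22.8 TPM.

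**Figure D3:**
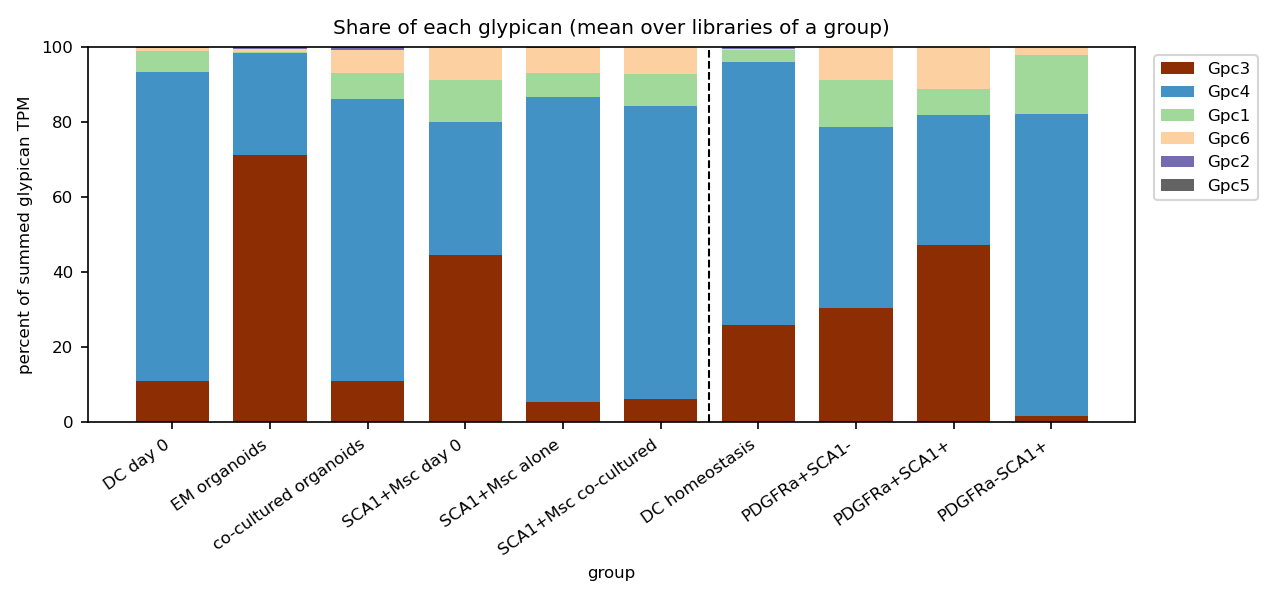
Mean share (percent, vertical axis) of each of the 6 glypicans in their summed TPM, by group; transwell groups are left of the dashed line and homeostasis groups right of it. Gpc3 takes 71.3% in EM organoids and 10.9% in co-cultured organoids, where Gpc4 takes 75.2%.

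Of 11 tested genes in the list of other glypicans and heparan sulphate enzymes, 4 were higher and 1 lower in EM organoids than in DC day 0, with a median log2 difference of 0.42 against 0.12 over all genes, where 27.1% of genes were higher and 17.2% lower. Gpc4 rose 1.81-fold (log2 0.84, SE 0.18, adjusted p = 0.00453). Sulf2, which removes sulphate groups from heparan sulphate at the cell surface, rose from 1.38 to 40.9 TPM (log2 4.14, SE 0.22, adjusted p = 1.05e-06), and Ext2, part of the enzyme that builds the heparan sulphate chain, from 25.0 to 118 TPM (adjusted p = 9.80e-05). Gpc1 was lower, 1.26 against 4.37 TPM, a call that was lost on the RPKM scale (adjusted p = 0.0645). In co-cultured organoids against DC day 0, 3 of the 11 were higher and 1 lower (median 0.17 against 0 over all genes, where 23.2% of genes were higher and 19.1% lower). Sulf2 was at 28.9 TPM there (adjusted p = 2.27e-06), and Gpc4 was at 67.2 TPM with no call (log2 difference 0.02, 95% interval -0.39 to 0.44, adjusted p = 0.970). Both contrasts share the DC day 0 libraries. Between the organoid cultures, Gpc4 was 1.73-fold lower in co-culture (log2 -0.82, adjusted p = 0.0180) and Sulf2 was not called (log2 -0.49, 95% interval -0.99 to 0.00, adjusted p = 0.195). Over all genes 5.74% were higher and 7.21% lower in that contrast, which chose Gpc3 and from which nothing is read for the 7 genes. In fresh stroma 6 of 11 were higher than in DCs and 2 lower in the transwell series (21.4% and 24.7% of all genes), led by Gpc6 (37.0 against 0.70 TPM, adjusted p = 5.03e-07). In PDGFRa+SCA1+ cells 6 of 10 were higher than in DCs and in PDGFRa+SCA1- cells 7 of 10 (9.85% and 9.98% of all genes), with none lower, and Gpc6 again had the largest difference (log2 5.52 and 5.29).

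Afp (ENSMUSG00000054932, chr5:90490737-90508907, plus strand) was low in all ductal groups. DC day 0 held 0.966 and 1.14 TPM (28 and 24 reads), EM organoids 4.0 and 4.70 TPM (96 and 101 reads), and co-cultured organoids 7.03 and 7.40 TPM (212 and 188 reads). The means of the 3 groups were 1.05 ± 0.122, 4.35 ± 0.495 and 7.22 ± 0.261 TPM (SD, n = 2). Neither difference from day 0 passed in limma: it was 1.38 for EM organoids (SE 0.82, 95% interval -0.47 to 3.23, adjusted p = 0.211) and 2.003 for co-cultured organoids (SE 0.82, interval 0.15 to 3.85, adjusted p = 0.0783). On the deposited RPKM scale the second one passed (log2 1.4, adjusted p = 0.0292). Afp thus ranked in co-culture above expansion medium by 1.66-fold on the means, the opposite order to Gpc3, which is given as values only.

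Outside ductal cells Afp reads were found in 2 libraries, both cultured SCA1+Msc. SCA1+Msc alone replicate 1 held 24 reads and SCA1+Msc co-cultured replicate 1 held 179 (8.39 TPM), against 0 in the other library of each group. In the co-cultured pair the hepatocyte markers summed to 456 TPM in replicate 1 and 2.11 TPM in replicate 2, with Alb at 305 and 0.0591 TPM, and the ductal markers to 553 and 272 TPM. Their part in the Afp value was not tested. SCA1+Msc day 0, with Alb at 13010 and 9084 TPM, held no Afp read. In homeostasis, DCs held 1.10, 0.376 and 3.46 (27, 8 and 73 reads), and the 9 stromal libraries held none, so Afp passed the filter on low values only in the transwell series.

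The albumin gene family, which sits beside Afp on chromosome 5, held calls in both directions. Alb, the main plasma protein of adult liver, averaged 3779 TPM in DC day 0, 462 TPM in EM organoids and 15.3 TPM in co-cultured organoids, and the last difference passed (log2 -7.87, SE 1.94, adjusted p = 0.00907). Gc, the vitamin D binding protein, was called higher in both cultures, a call that quantile normalization ended in co-cultured organoids. Afm, which encodes afamin, was lower in both (log2 -3.29 and -3.37). Of the 3 relatives 1 was higher and 1 lower in EM organoids, and 1 was higher and 2 lower in co-cultured organoids, against 27.1% and 17.2% of all genes in the former and 23.2% and 19.1% in the latter. The 11 hepatocyte markers, Alb among them, summed to 5011 and 6127 TPM in DC day 0, 1644 and 1532 TPM in EM organoids, and 180 and 460 TPM in co-cultured organoids, and 8 and 7 of the 10 other than Alb were lower in the cultures. Their part in the Alb values was not tested.

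Meg3 (ENSMUSG00000021268, chr12:109541001-109571726, plus strand) was the only gene of those tested in EM organoids against DC day 0 that passed. DC day 0 held 0.0771 and 0.124 TPM (12 and 14 reads), EM organoids 1.68 and 1.10 TPM (217 and 127 reads), and co-cultured organoids no read in either library. The EM organoid mean of 1.39 ± 0.412 TPM (SD, n = 2) was 13.9-fold the DC day 0 mean (log2 difference 1.11, SE 0.28, adjusted p = 0.00974). Without EM organoids replicate 1, the difference was 0.93 with adjusted p = 0.0697, and over 10 alternatives the adjusted p ran from 0.00134 to 0.0697. Co-cultured organoids differed from DC day 0 by -0.14 (95% interval -0.77 to 0.49, adjusted p = 0.757). Against the limit of 3 reads in co-cultured organoids the EM organoid mean was at least 63.2-fold higher, which is given as a value because the gene list was chosen on that contrast.

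Meg3 was above all a stromal transcript. SCA1+Msc day 0 held 10.5 and 12.3 TPM, SCA1+Msc alone 7.62 and 6.62 TPM, and SCA1+Msc co-cultured 6.53 and 5.64 TPM. Fresh SCA1+Msc exceeded fresh DCs by 3.49 on the log2 scale (SE 0.28, adjusted p = 8.80e-06). The lower level in SCA1+Msc alone than at day 0 did not pass (log2 -0.61, 95% interval -1.24 to 0.02, adjusted p = 0.109), but did on the RPKM scale (adjusted p = 0.0242). In homeostasis, DCs held 1, 2 and 3 reads, against 22.8, 32.7 and 18.5 for PDGFRa+SCA1- cells and 14.6, 27.7 and 16.5 for PDGFRa+SCA1+ cells. The means of these populations were 1003-fold and 778-fold the value of 3 reads in DCs, the most reads that a DC library held. The log2 differences from DCs were 4.62 and 4.29 (SE 0.49 each). Meg3 passed the homeostasis filter on low values only through these populations, so the direction of both differences was built in and no p is attached to them. PDGFRa-SCA1+ cells held 0.282, 0 and 0.0079, with no difference from DCs passing (log2 0.10, 95% interval -0.97 to 1.17, adjusted p = 0.934). The transwell genes most like Meg3 were Col16a1 (r = 0.99), Thbs3 (0.99) and Ccdc88a (0.98). The antisense gene Gm26906 overlaps the locus.

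Dlk1 (ENSMUSG00000040856, chr12:109452823-109463336, plus strand), which encodes a membrane protein related to the Notch ligands, was nearly absent from ductal cells. It had no read in the 5 fresh DC libraries, 14 reads in EM organoids replicate 1 (0.347 TPM), none in replicate 2, and none and 2 reads in co-cultured organoids. SCA1+Msc held 0.546 and 1.77 TPM at day 0, 0.369 and 1.44 TPM alone, and 0.977 and 0.539 TPM in co-culture, with all 3 groups overlapping. The difference between fresh SCA1+Msc and DCs was not called (log2 1.05, SE 0.39). Dlk1 passed the transwell filter only through replicate 2 of SCA1+Msc day 0 and of SCA1+Msc alone. A difference from DCs was therefore built in, and no p is attached to it. In homeostasis it was read in PDGFRa+ cells, with 0.649, 0.758 and 0.880 for PDGFRa+SCA1+ cells and 0, 11.5 and 0.440 for PDGFRa+SCA1- cells. It was read in no PDGFRa-SCA1+ library. The value of 11.5 (427 reads) in mouse E did not pass the filter, which asks for a value of 1 in 3 samples, and was not tested.

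Rian and Mirg are maternal noncoding RNAs of the domain and Rtl1 is a paternal gene derived from a retrotransposon. In PDGFRa+SCA1- cells of mouse E, Rian was 23.3 and Mirg 12.7, against 4.18 and 0.573 in mouse A and 11.5 and 0.0700 in mouse F. In EM organoids Rian held 0.369 and 0.789 TPM, and in co-cultured organoids it held no read, the same order as Meg3, with no call against DC day 0 (log2 0.61, adjusted p = 0.173). Of the 5 domain genes beyond Meg3 and Dlk1, none was called in either organoid culture against DC day 0. In fresh SCA1+Msc, 4 of 5 were higher than in DCs and 1 lower (21.4% and 24.7% of all genes): Rian, Mirg and Rtl1 were higher (log2 2.10, 1.71 and 2.28). These genes passed the filter on low values only through SCA1+Msc libraries. Their difference from DCs was therefore built in, and no p is attached to it. Dio3, which inactivates thyroid hormone, was lower (1.52 against 17.5 TPM, adjusted p = 0.00167). In SCA1+Msc cultured alone, Dio3 rose to 28.6 TPM (log2 3.78, adjusted p = 4.77e-04) and Rian fell (log2 -1.13, adjusted p = 0.0199). Mirg and Rtl1 also fell (log2 -1.39 and -1.74). Both passed the filter through the day 0 libraries, apart from a co-cultured Rtl1 value of 1.07 TPM, so no p is attached to these falls. After quantile normalization the Rian fall was at adjusted p = 0.0503. In PDGFRa+SCA1- cells, 2 of 4 tested genes were higher than in DCs and 1 lower (9.98% and 18.9% of all genes), Rian by 3.47 and Dio3 by -4.55 on the log2 scale. Rian and Rtl1, the higher genes, passed the homeostasis filter only through PDGFRa+ libraries. Dio3 passed it only with the help of the DC libraries. These directions were therefore built in, and the counts are a description.

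**Figure D4:**
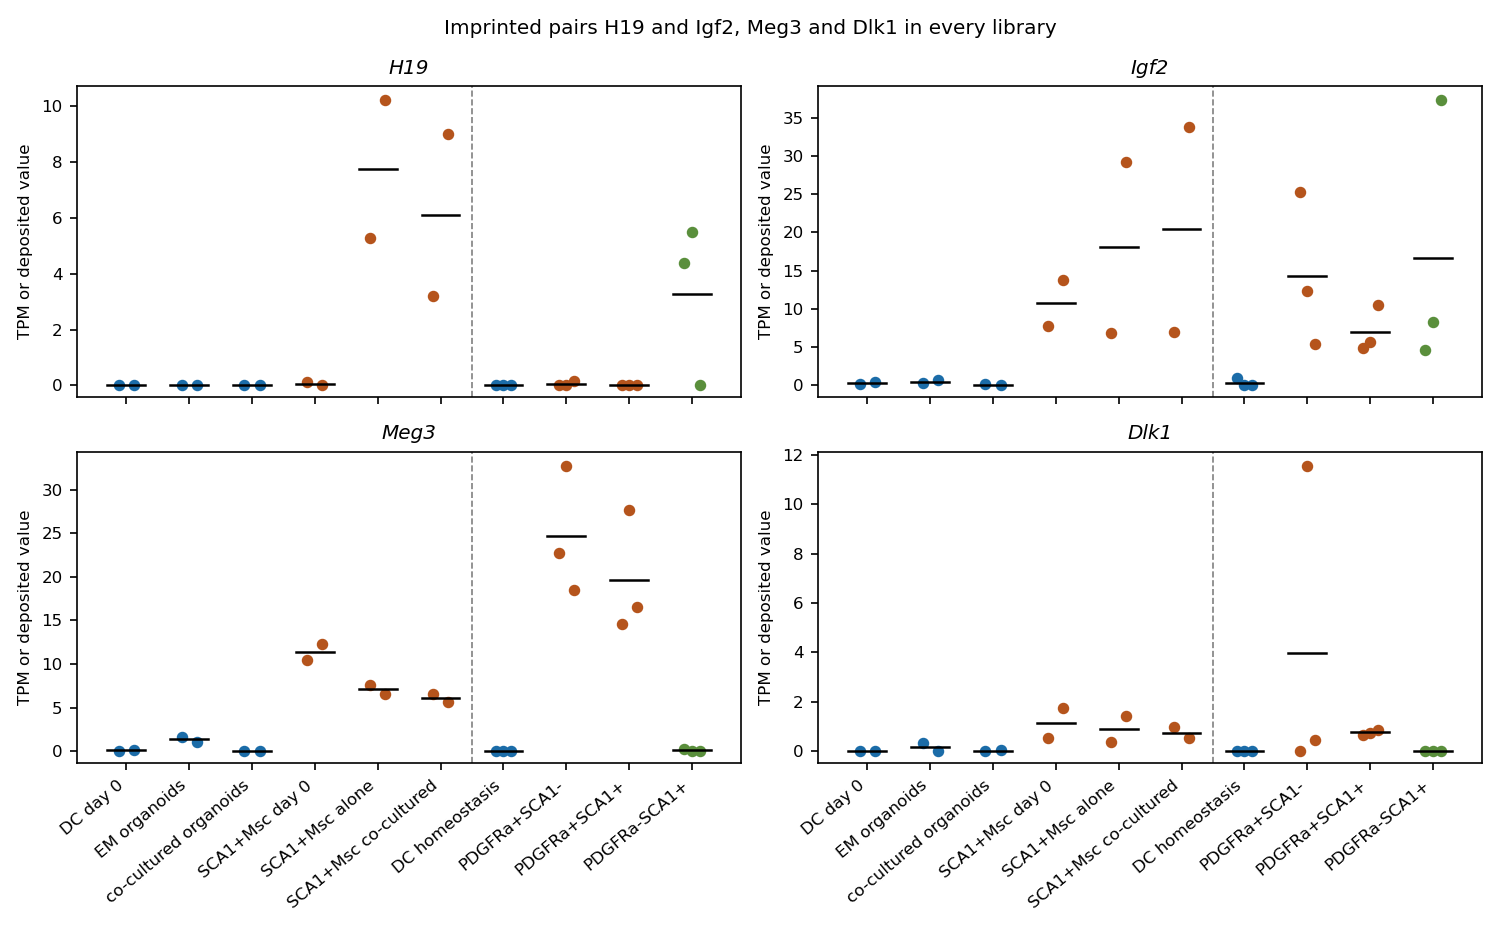
H19 and Igf2 (top) and Meg3 and Dlk1 (bottom) in each library (points), with bars at group means; the vertical axes are linear, in TPM left of the dashed line and in the deposited value right of it. H19 appears in cultured SCA1+Msc (3.20 to 10.2 TPM) and in 2 of 3 PDGFRa-SCA1+ libraries, and 1 PDGFRa+SCA1- library stands at 11.5 for Dlk1.

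H19 (ENSMUSG00000000031, chr7:142575529-142578143, minus strand) had, like Lin28b, no read in any DC or organoid library, 9 in all, where 3 reads would be 0.136 to 0.195 TPM (transwell) or 0.164 to 0.187 (homeostasis). It appeared in stromal culture. SCA1+Msc day 0 held 2 reads and none, SCA1+Msc alone held 5.27 and 10.2 TPM (about 100 and 185 reads), and SCA1+Msc co-cultured held 3.20 and 8.99 TPM (about 50 and 160 reads). The mean in SCA1+Msc alone was at least 38.0-fold above the limit of 3 reads at day 0. H19 passed the filter on low values only through the 4 cultured SCA1+Msc libraries, so a difference from day 0 was built in and no p is attached to it. Co-culture did not differ from SCA1+Msc alone beyond the spread (log2 -0.37, 95% interval -1.35 to 0.61, adjusted p = 0.972). From day 0 to co-culture H19 stayed at 0 in DCs, so comparing that change with the one in SCA1+Msc only restates the stromal values. Over all genes, 13.8% had a higher and 14.5% a lower value of that difference of changes. H19 reads also cover the microRNA gene Mir675 inside it.

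In the freshly sorted homeostasis cells most H19 reads were in PDGFRa-SCA1+ cells. PDGFRa-SCA1+ cells held 4.37 and 5.48 in mice A and E (80 and 88 reads) and no read in mouse F, PDGFRa+SCA1- cells held 3 reads in mouse F and none otherwise, and PDGFRa+SCA1+ cells held none. The gene did not pass the homeostasis filter, so these values are not tested. Igf2, the growth factor gene on the other side of the imprinted control region, had a wider range: 7.72 and 13.8 TPM in SCA1+Msc day 0, 6.92 and 29.2 TPM alone, and at most 0.766 TPM in DC day 0 and organoids. It did not pass between SCA1+Msc alone and day 0 (log2 0.45, adjusted p = 0.671). In PDGFRa-SCA1+ cells Igf2 was 4.65, 8.24 and 37.3 for mice A, E and F, so the highest Igf2 value stood in the library with no H19 read. Igf2 was higher than in DCs in PDGFRa+SCA1+ (7.06 on average), PDGFRa+SCA1- (14.4) and PDGFRa-SCA1+ cells (16.7), against 0.347 in DCs. Igf2 passed the homeostasis filter only through these stromal populations, so that direction was built in and no p is attached to it. Of 7 tested neighbours in the H19-Igf2 domain, 1 rose and 3 fell in SCA1+Msc alone against day 0, where 27.4% of all genes were higher and 17.4% lower. Cdkn1c, an imprinted inhibitor of the cell cycle, fell from 37.1 to 11.9 TPM (adjusted p = 8.65e-04). The genes most like H19 over the 12 transwell libraries were Col28a1 (r = 0.999), Gkn1 (0.99) and Gbgt1 (0.99), which are also at or near 0 outside cultured SCA1+Msc.

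Igf2bp3 (ENSMUSG00000029814, chr6:49085223-49214957, minus strand) was low throughout. Its transwell group means lay between 0.149 and 0.573 TPM, the highest library being SCA1+Msc alone replicate 2 (1.07 TPM, 64 reads), and it did not pass the transwell filter. Homeostasis DCs held 0.979, 1.44 and 1.53 (50, 85 and 79 reads). PDGFRa+SCA1+ cells held 0.116, 0.274 and 0.186, all below the DCs, and PDGFRa+SCA1- cells held 0.0169, 1.49 and 0, the high value being in mouse E. No difference from DCs passed. It was -0.95 in PDGFRa+SCA1+ cells (95% interval -1.90 to -0.01), -0.76 in PDGFRa+SCA1- cells (interval -1.70 to 0.19) and -0.93 in PDGFRa-SCA1+ cells (interval -1.87 to 0.02). Igf2bp3 passed the homeostasis filter only through DCs of mice E and F and PDGFRa+SCA1- cells of mouse E. Values lower than in DCs were therefore largely built in, and no p is attached to them. Lin28b (ENSMUSG00000063804, chr10:45376620-45486395, minus strand) had no read in any of the 24 libraries, where 3 reads would be 0.037 to 0.0617. No level above that limit was found at this depth. Its paralogue Lin28a had a value in EM organoids replicate 1 only (0.0702 TPM). The related Igf2bp2 was at 16.9 TPM in EM organoids and 18.8 TPM in DC day 0, with no call (adjusted p = 0.702).

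In all, 12 further genes of the LIN28, let-7 and IGF2BP circuit were tested. In EM organoids against DC day 0, 2 were higher and 3 lower, against 27.1% and 17.2% of all genes, and in co-cultured organoids 1 was higher and 3 lower, against 23.2% and 19.1%. Mycn, a let-7 target, rose from 1.96 to 14.9 TPM in EM organoids (log2 2.45, adjusted p = 0.00141) and to 13.5 TPM in co-culture (adjusted p = 0.00208). Hmga1 and Myc were lower in EM organoids (log2 -3.03 and -3.02, adjusted p = 3.02e-05 and 2.08e-06). In PDGFRa+SCA1- cells 5 of 12 were lower than in DCs (18.9% of all genes), with none higher (9.98%).

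Of the known repressors, Zhx2 was lower than in DC day 0 in both organoid cultures and Zbtb20 in co-cultured organoids. Zhx2 fell from 31.8 TPM in DC day 0 to 5.12 TPM in EM organoids (log2 -2.44, SE 0.28, adjusted p = 1.10e-04) and to 7.01 TPM in co-cultured organoids (log2 -2.04, SE 0.28, adjusted p = 3.60e-04), and did not differ between the cultures beyond the spread (log2 0.40, adjusted p = 0.452). Zbtb20 was at 39.99 TPM in DC day 0, 30.3 TPM in EM organoids (no call, adjusted p = 0.150) and 12.4 TPM in co-cultured organoids (log2 -1.64, adjusted p = 1.55e-04), and was lower in co-culture than in expansion medium (log2 -1.25, SE 0.20, adjusted p = 0.00330). Of 15 listed regulators, 6 were higher and 3 lower in EM organoids against DC day 0, with a median of 0.44 against 0.12 over all genes, and 3 were higher and 5 lower in co-cultured organoids (median -0.10 against 0). Over all genes 27.1% and 23.2% were higher, and 17.2% and 19.1% lower. The balance depended on the scaling, since quantile normalization left 1 higher and 6 lower in each culture. Foxa2, a forkhead factor that opens liver enhancers, rose in both (126 and 88.3 TPM against 22.2, adjusted p = 0.00645 and 0.0198). Nr5a2 fell in both (adjusted p = 8.70e-04 in EM organoids) and was lower in co-culture than in expansion medium (0.752 against 3.95 TPM, adjusted p = 0.0128). In SCA1+Msc alone Zhx2 fell to 10.8 from 30.9 TPM (log2 -1.44, adjusted p = 0.00267).

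Most other imprinted growth genes were lower or not called in EM organoids. Of 13 tested genes of the imprinted gene network, 1 was higher and 8 lower than in DC day 0 (median log2 difference -1.50), where 27.1% of all genes were higher and 17.2% lower. In co-cultured organoids 1 was higher and 7 lower, against 23.2% and 19.1% of all genes. Grb10, an adaptor that dampens insulin signalling, fell from 59.8 to 2.15 TPM in EM organoids (adjusted p = 4.22e-07), and Dcn, a stromal proteoglycan, from 58.1 to 1.02 TPM (adjusted p = 4.80e-05), beside the fall of mesenchymal markers given above. Ndn was the gene that rose, to 3.01 from 0.775 TPM (adjusted p = 6.00e-04). Among 11 tested fetal or progenitor markers outside the group, 4 were higher and 1 lower in EM organoids (27.1% and 17.2% of all genes), and 4 and 4 after quantile normalization. Prom1 rose from 74.6 to 379 TPM (adjusted p = 1.52e-05) and Golm1 from 106 to 308 TPM (adjusted p = 3.83e-05), whereas Mdk, a heparin-binding growth factor, fell from 32.1 to 9.22 TPM (adjusted p = 0.00160). In co-cultured organoids Golm1 was at 582 TPM, higher than in expansion medium (log2 0.91, adjusted p = 0.00400), and Prom1 was at 433 TPM with no call between the cultures (adjusted p = 0.645).

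Counted over the group, the calls were of Gpc3 and Meg3, with H19 left aside where it had to differ. Against DC day 0, 1 of the 4 genes tested was higher in EM organoids, beside 27.1% of all genes, and 0 of 4 were called in co-cultured organoids, where Afp had an unadjusted p of 0.0365. The 4 include H19, which had no read in these groups and could not be called, and Dlk1, which had at most 14 reads in any of these libraries. In SCA1+Msc alone against day 0, Gpc3 was lower, beside 17.4% of all genes. In fresh SCA1+Msc against DCs 2 of 5 were higher, beside 21.4%, with Dlk1 counted among the 5 although the filter built in its difference. In co-cultured against lone SCA1+Msc 0 of 5 were called, beside 0.0938% of all genes higher and 0.0331% lower. In PDGFRa+SCA1+ and PDGFRa+SCA1- cells against DCs 2 of 3 were higher each, beside 9.85% and 9.98%. Meg3 is counted among the 2 although the filter built in its direction there, so Gpc3 is the only call not fixed by the filter. In PDGFRa-SCA1+ cells 1 of 3 was lower, beside 11.3%. Between the PDGFRa+ populations 0 of 3 were called, beside 0.435% and 0.153%. The genes were picked by name and some passed the filter only through the groups where they are high, so these counts are a description.

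**Figure D5:**
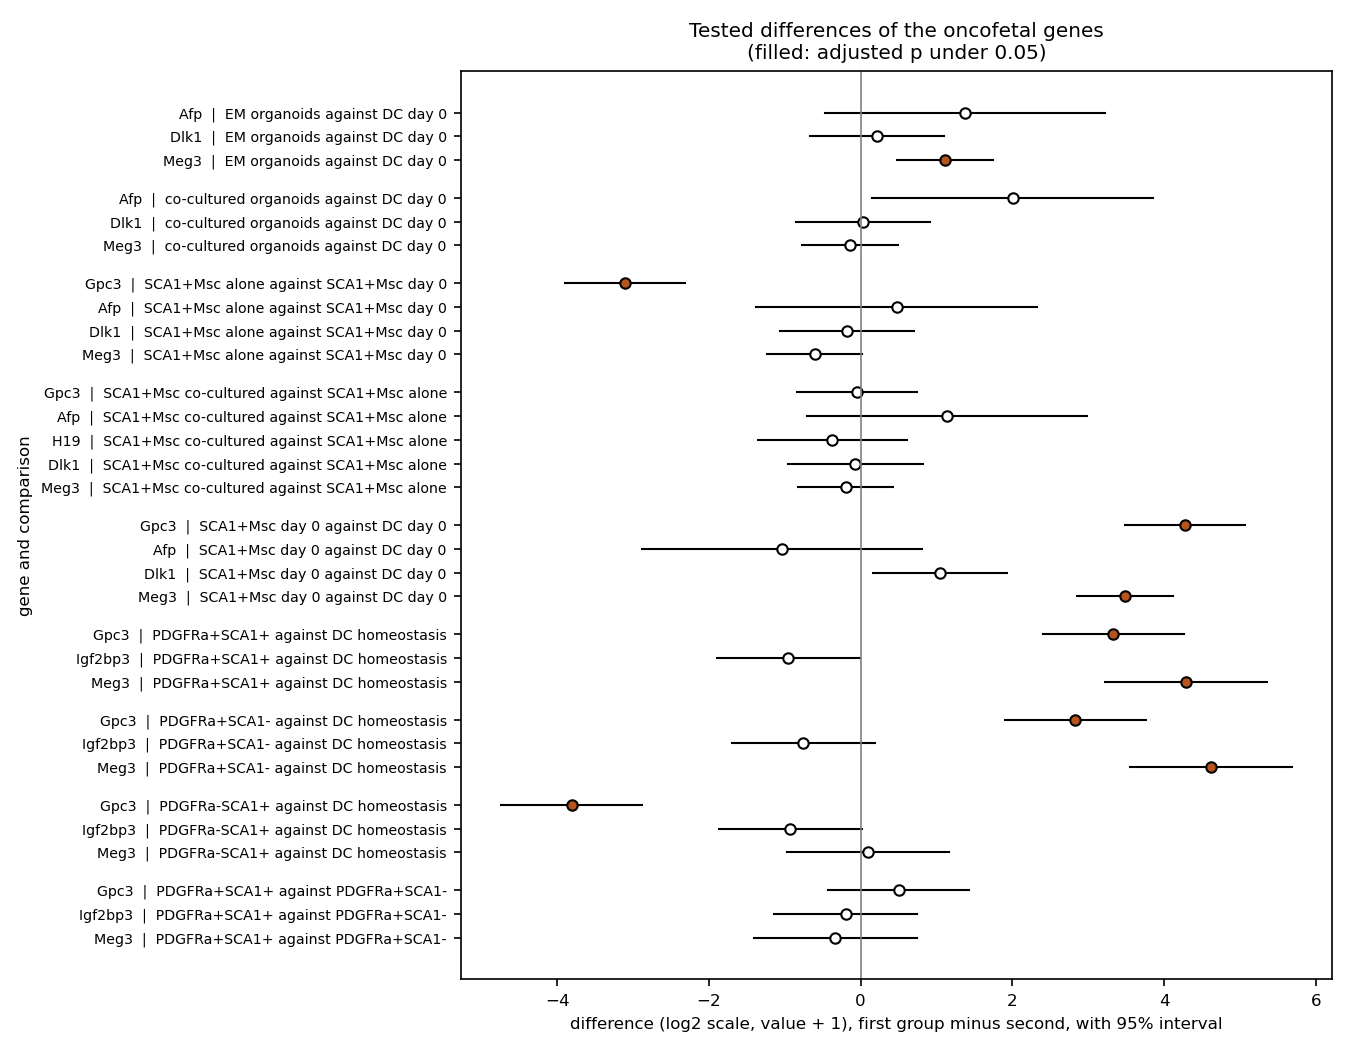
Tested differences of the oncofetal genes, as log2(value + 1) differences of the first group minus the other (horizontal axis; lines are 95% intervals, filled points passed at adjusted p under 0.05); contrasts that chose Gpc3, and H19 against groups without it, are left out. The filled points are those of Gpc3 and Meg3 in SCA1+Msc day 0 and PDGFRa+ cells against DCs, Gpc3 in PDGFRa-SCA1+ cells and in SCA1+Msc alone, and Meg3 in EM organoids. Against DCs, the filter on low values built in the direction of Meg3 in PDGFRa+ cells and of Dlk1 in SCA1+Msc day 0. It largely built in that of Igf2bp3, so these points are a description only.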

How the data were processed

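Libraries were made by Smart-seq2 and Nextera XT tagmentation and read as single reads of 50 bases. Per the study's methods and the submitters' processing notes, the authors aligned reads with STAR 2.5.0a to GRCm38 (mm10) and counted them over exons with featureCounts, without strand. The authors deposited RPKM values for the transwell experiment. They were rescaled here to TPM (each value divided by its library's sum, times 1000000). The homeostasis table was deposited under the name TPM and is treated here as a score, because library sums ran from 847270 to 1173511 instead of being equal: the totals had been applied down the table in rotation, which moved single values by a factor of 0.722 to 1.39 (0.740 to 1.31 for the 7 genes). Corrected values were an alternative, and were used for shares among glypicans and for fold limits.

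Tests used limma 3.58.1 (R 4.3.3) on log2(value + 1) with a mean-variance trend and a mean for each group, fitted to the 12 samples of either experiment together. Genes needed a value of 1 in at least 2 (transwell) or 3 (homeostasis) samples, which left 18133 and 17028 genes. Of the 7 genes, 5 and 3 passed. Benjamini-Hochberg adjustment ran over all genes, at 0.05. Fold changes of low genes are understated on this scale. The design had assumed TPM in both tables. Whole reads were recovered from the spacing of low values with GENCODE exon lengths (93.0% and 92.9% of values up to 20 reads were whole within 0.02). No count test was run because the deposited values are not counts. Scripts used Python 3.11.15, numpy 2.4.6, pandas 2.3.3, scipy 1.17.1 and matplotlib 3.10.9 and were tested on simulated data. Positions come from GENCODE on GRCm38.

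The 7 genes and all lists were chosen with earlier results of these data known. Named genes were the 7 themselves, up to 3 with the largest called rise and fall of each list, a few named whatever their values (Igf2, Rian, Mirg, Rtl1, Zhx2, Zbtb20, Alb, Gpc4, Igf2bp1, Igf2bp2, Lin28a and Hmga2), and the 3 genes most like each tested one. Populations from 1 mouse pair the homeostasis samples by design; deviations from group means within a mouse correlated weakly (means 0.0207 to 0.0624). Alternatives were the pseudocount, the filter, quantile normalization, the deposited or corrected scale, a replicate block and leaving out each library.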

Additional observations from a re-analysis of the deposited data

Results flagged for a closer look

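A single result met a rule for a closer look: the change of H19 from day 0 to co-culture differed between DCs and SCA1+Msc, by -2.60 on the log2(TPM + 1) scale. In DCs H19 stayed at 0 (no read in DC day 0 or in co-cultured organoids), and in SCA1+Msc it went from 2 reads and 0 reads to 3.20 and 8.99 TPM. The value restates the stromal levels against a fixed 0, and H19 passed the filter on low values only through cultured SCA1+Msc, so it is given without a p and shows no difference in response beyond those levels. Groups of 2 or 3 libraries were too small for the test of single outlying samples.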

How the results depend on the processing

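Of the alternatives run for the oncofetal genes, 455 stayed the same, 9 moved, 5 newly passed, 1 no longer passed and 13 changed sign. These numbers include contrasts given as values only. In tested contrasts, the same means an unchanged direction and side of the threshold. For a difference of 0 it means staying under 0.1 with no call. In contrasts given as values only, it means a shift within 1 SD between libraries. The lost call was Meg3 in EM organoids (given in the report). No value that changed sign had passed. These were Dlk1 in SCA1+Msc alone against day 0 (0.0221 after quantile normalization, and -0.6 to 0.238 with single libraries left out), Igf2bp3 in PDGFRa+SCA1- cells (0.112 after quantile normalization) and between the PDGFRa+ populations (0.104 with pseudocount 0.1), and Meg3 in PDGFRa-SCA1+ cells (-0.0197 without mouse A, range -0.0197 to 0.16). In co-cultured against lone SCA1+Msc they were Gpc3 (0.364), Afp (-0.474) and H19 (0.254) without co-cultured replicate 1, H19 without lone replicate 2 (0.0453) and Dlk1 without co-cultured replicate 2 (0.113); leaving out single libraries gave -0.456 to 0.364 for Gpc3, -0.474 to 2.76 for Afp, -0.998 to 0.254 for H19 and -0.485 to 0.113 for Dlk1. For the change in DCs against that in SCA1+Msc, they were Afp (-0.533) and Meg3 (-0.101) with pseudocount 0.1, and Afp without SCA1+Msc co-cultured replicate 2 (-1.23); without replicate 1, Afp passed at 2.0 (adjusted p = 0.0393). The cause was not tested.

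Counts over all genes moved past 1.5 times in few settings. For co-cultured against lone SCA1+Msc, 23 genes passed, and 40 with pseudocount 0.1, 51 with no filter, 15 with a minimum of 5 and 5 with the replicate block. Between the PDGFRa+ populations, 100 passed (74 higher, 26 lower), and 54 after quantile normalization (31 higher, 23 lower) and 20 with the mouse as replicate block. Leaving out each library gave 6230 to 6400 genes for EM organoids and 5799 to 6026 for co-cultured organoids against DC day 0, and 1093 to 1309 (all genes: 2347) between the cultures. It gave 6420 to 7651 for SCA1+Msc alone against day 0, 0 to 27 for co-cultured against lone, 6753 to 8040 for SCA1+Msc against DC day 0 and 3604 to 5340 for the difference of changes. In homeostasis it gave 2668 to 3229 (PDGFRa+SCA1+), 3251 to 5115 (PDGFRa+SCA1-), 2706 to 3681 (PDGFRa-SCA1+) and 6 to 392 (between PDGFRa+ populations); without DC mouse E, 2668 and 3251 passed. Refits on fewer libraries also have fewer samples. A lone library left in a group is assumed to vary like the others.

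Quantile normalization changed which direction had more calls in PDGFRa+SCA1+ cells against DCs (2053 higher and 2001 lower, from 1678 and 2376). It did so too in PDGFRa-SCA1+ cells against DCs (1973 and 2193, from 1952 and 1923) and in co-cultured against EM organoids (1154 and 980, from 1040 and 1307). In PDGFRa+SCA1- cells against DCs the split became 2161 higher and 2522 lower (from 1699 and 3212), with the median of all genes moving from -0.47 to -0.13. What the transwell replicate numbers 1 and 2 share across groups is not stated, and the deviations correlated weakly (means 0.0043 to 0.0295). With the replicate block 7953 genes passed for EM organoids against DC day 0, 7557 for co-cultured organoids against DC day 0, and no call of an oncofetal gene changed in either experiment. Of calls of the listed genes, 47 were lost under another scaling and 0 changed sign. Depth limits Lin28b, Dlk1, Igf2bp3 and H19, whose values rest on few reads.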
